A study of Mus musculus with 12 samples.

Results

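The 10 genes described here, which hepatocytes around the central vein are known to express under Wnt signalling, were followed across all libraries of a liver ischemia experiment: Glul, Oat, Rhbg, Slc1a2, Slc1a4, Tbx3, Axin2, Rnf43, Znrf3 and Lgr5. They were taken by symbol, and all 10 were among the 53796 genes of the deposited table. Total RNA from mouse liver was sequenced in 12 libraries, 3 in each of 4 groups. RIPK1_D138N carries the D138N mutation of RIPK1, a kinase that acts in cell death and inflammation downstream of TNF receptors, and the mutation is known to remove the kinase activity. TNFR12_KO is labelled as a knockout of TNFR1 and TNFR2, the receptors of the cytokine TNF. WT and Sham are both wild type, and Sham alone carries a sham label. The RIPK1_D138N, TNFR12_KO and WT libraries are read as ischemic because the series title names ischemia. Neither mutant has a sham group among these libraries, so what a mutant shows at rest and what it shows after ischemia cannot be told apart. Age, sex, duration of ischemia and time of collection are not given in the sources used here. Nothing says whether libraries of a group come from separate animals, so p-values measure only the spread between these samples, which may be technical.

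Wnt proteins and R-spondins released by endothelial cells of the central vein are known to keep β-catenin active in the surrounding hepatocytes, where it works with TCF/LEF factors in the nucleus. The hepatocytes that respond take up glutamate and ammonia that escaped the urea cycle upstream and join them into glutamine. The same signal is known to induce its own brakes, among them Axin2, Rnf43 and Znrf3. Bulk RNA carries no position in the lobule, and the pericentral and Wnt-dependent character of the 10 genes is background that was not tested here. Fewer pericentral hepatocytes and less RNA per cell cannot be told apart in such data.

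Levels are FPKM, fragments scaled to transcript length and library depth by the authors, so they can be compared between genes. The libraries recovered 11 to 59.4 fragments per FPKM and kilobase of transcript, least in 2 of the 3 Sham libraries. Hepatocyte genes were high in every library: the summed level of 10 hepatocyte markers was 23930 to 26430 FPKM in RIPK1_D138N, 23520 to 27690 in TNFR12_KO, 10270 to 13020 in WT and 38910 to 46920 in Sham. Tnfrsf1a and Tnfrsf1b, which encode TNFR1 and TNFR2, were still listed in TNFR12_KO, at 15.3 to 21.9 and 3.96 to 9.31 FPKM, against 32.3 to 38.1 and 8.13 to 10.2 FPKM in WT. Tnfrsf1a was as low in RIPK1_D138N, at 18.9 to 21 FPKM, so it does not set the TNFR12_KO libraries apart. A level per gene does not show whether part of a gene is deleted. RIPK1_D138N replicates 2 and 3 had 20.1 and 23.4 FPKM of Xist, the RNA that silences an X chromosome, while the other 10 libraries held at most 0.0824 FPKM. Ddx3y, a gene of the Y chromosome, read 0.0176 and 0 FPKM in replicates 2 and 3 against 12 to 37.4 in the other 10 libraries. By Xist and Ddx3y those replicates read as female and the other libraries as male, although the sources used here do not give sex. RIPK1_D138N thus mixes the sexes where the other groups do not, so its differences from them cannot be fully told apart from sex. Values without replicates 2 and 3 are given beside several results. That fit leaves RIPK1_D138N with 1 library, assumed to vary like the other groups.

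Of the 8 members that could be tested, 7 fell and 1 rose in WT against Sham, where 41.9% of all tested genes were called lower and 16.4% higher. In RIPK1_D138N against WT 5 rose and 1 fell, beside 29.8% of all tested genes called higher and 21.9% lower. In TNFR12_KO against WT 6 rose and 1 fell, beside 29.6% of all tested genes called higher and 17.5% lower. Genes that handle ammonia, ornithine and glutamate (Glul, Oat, Rhbg and Slc1a2) and the transcription factor gene Tbx3 were low in WT and higher in both mutants. Slc1a4 was the other way round. Axin2, the feedback scaffold, was not called higher in either mutant.

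Glul encodes glutamine synthetase, which joins ammonia to glutamate (chromosome 1, 153899944 to 153909723, + strand). It read 409.5, 221 and 292.5 FPKM in RIPK1_D138N replicates 1 to 3, 239, 331.4 and 286.3 in TNFR12_KO replicates 1 to 3, 122.2, 184.4 and 100.9 in WT libraries a to c, and 361.6, 567 and 672.3 in Sham libraries a to c. Every WT library lay under every other library, and RIPK1_D138N overlapped both TNFR12_KO and Sham. Oat encodes ornithine aminotransferase, a mitochondrial enzyme that turns ornithine towards glutamate (chromosome 7, 132557478 to 132576398, − strand). It read 450.7, 246 and 293.3 FPKM in RIPK1_D138N, 124.6, 322.5 and 155.3 in TNFR12_KO, 23.98, 47.03 and 22.85 in WT and 292.4, 489.2 and 347.4 in Sham. WT again stood apart at the bottom, while the other 3 groups overlapped.

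Rhbg encodes an ammonia transporter of the Rh family (chromosome 3, 88242874 to 88254709, − strand). It read 8.155, 3.709 and 4.993 FPKM in RIPK1_D138N, 2.91, 6.617 and 2.687 in TNFR12_KO, 0.4587, 1.323 and 0.4595 in WT and 6.276, 9.533 and 7.877 in Sham. The highest WT library held less than the lowest of any other group. Slc1a2 encodes GLT-1, a transporter that brings glutamate into cells (chromosome 2, 102658659 to 102790784, + strand). It read 42.44, 23.69 and 27.56 FPKM in RIPK1_D138N, 12.18, 15.07 and 9.945 in TNFR12_KO, 2.278, 9.168 and 3.129 in WT and 27.25, 45.64 and 40.67 in Sham. TNFR12_KO lay between WT and the other groups without touching either, and RIPK1_D138N overlapped Sham. WT library b was the highest of the WT libraries for all 4 of these genes, and RIPK1_D138N replicate 1, which is Xist-negative, the highest of its group.

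**Figure D1:**
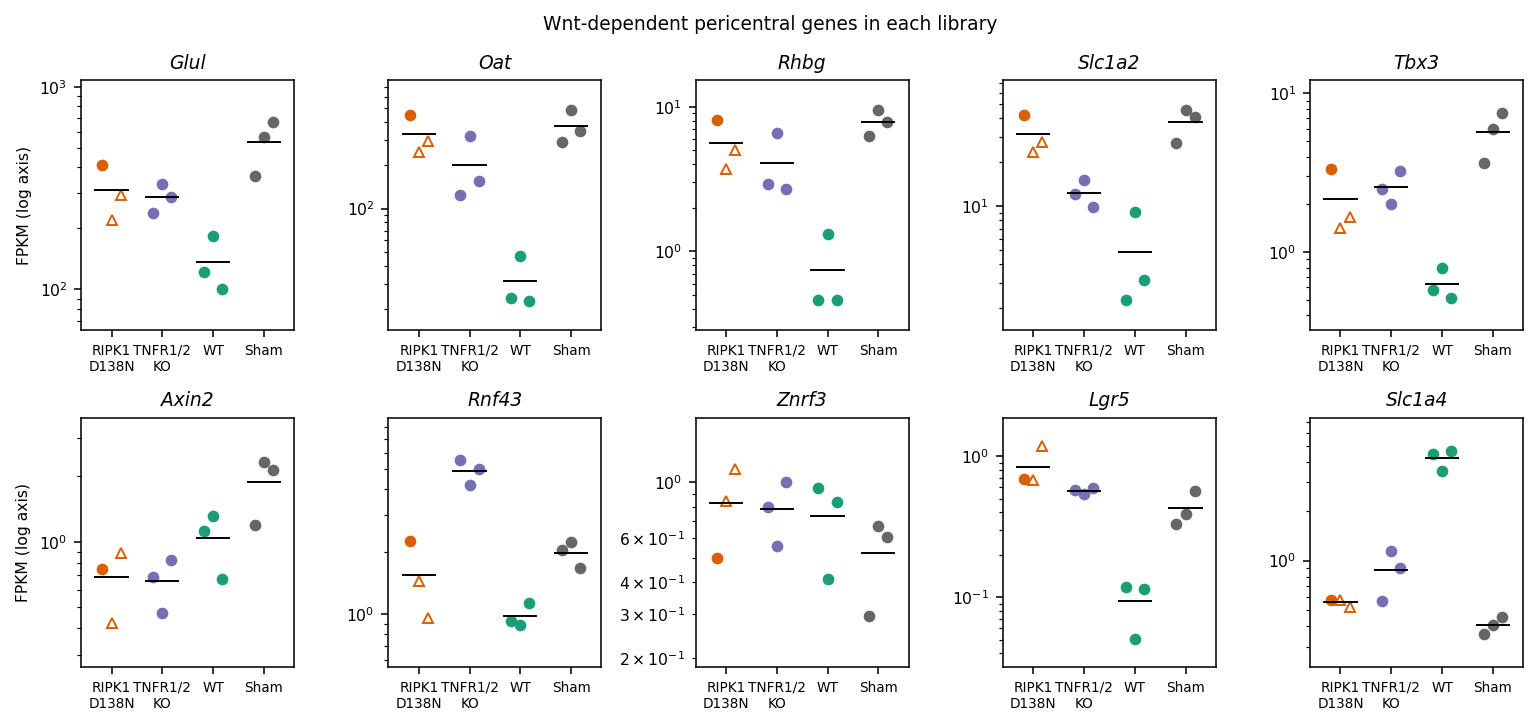
FPKM of each of the 10 genes in every library, on log axes with a scale of their own per panel. Points are libraries (3 per group), bars are group means, and open triangles are the Xist-positive RIPK1_D138N replicates 2 and 3. Glul, Oat, Rhbg, Slc1a2 and Tbx3 are lowest in all 3 WT libraries, Slc1a4 is highest there, and Rnf43 is highest in TNFR12_KO, at 4.186 FPKM or more.

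WT was set against Sham to see how ischemia changed wild-type liver. Each group has 3 libraries, and log2 fold changes were computed on FPKM + 1, a scale that understates the change of low genes. Oat fell furthest of the 10 genes, to a mean of 31.3 ± 13.6 FPKM in WT against 376 ± 102 in Sham (SD, n = 3 each), 12.03 times lower (log2 fold change -3.59, SE 0.374, limma adjusted p = 5.59e-06). Slc1a2 was 7.79 times lower, at 4.86 ± 3.76 against 37.9 ± 9.51 FPKM (log2 fold change -2.88, SE 0.367, limma adjusted p = 2.75e-05). Rhbg was 10.6 times lower, at 0.747 ± 0.499 against 7.89 ± 1.63 FPKM (log2 fold change -2.37, SE 0.314, limma adjusted p = 3.75e-05). Glul was 3.93 times lower, at 136 ± 43.4 against 534 ± 158 FPKM (log2 fold change -1.97, SE 0.296, limma adjusted p = 0.000102). In the FPKM as deposited, Glul thus kept 25.4% of its Sham level and Oat 8.3%. These FPKM do not share a common total: all genes summed to 288934 to 303514 in WT and 649373 to 750501 in Sham. In the mutants they summed to 441296 to 518580. The size of the Glul fall depended on the fit, with log2 fold changes from -2.22 to -0.78 over 14 alternatives, all called. WT library b weighs on the means: without it Slc1a2 was 14 times lower in WT than in Sham, Oat 16.07 times and Rhbg 17.2 times. By ratio of means Rhbg and not Oat then fell furthest. The threshold for a call was an adjusted p of 0.05 over the 11728 genes that reached 1 FPKM in 3 or more libraries. The median of all tested genes was -0.36 in this comparison. Scaling the libraries by median-of-ratios moved that median to -0.10 and the shares of all tested genes called to 30.0% lower and 24.2% higher, and with it 5 members were called lower.

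The comparisons of each mutant with WT ask whether kinase-dead RIPK1 or loss of the TNF receptors changes the liver after ischemia. All 4 ammonia and glutamate genes rose in both. In RIPK1_D138N, Oat averaged 330 ± 107 FPKM, 10.55 times its WT mean (log2 fold change 3.39, SE 0.374, limma adjusted p = 1.18e-05). Slc1a2 averaged 31.2 ± 9.90 FPKM, 6.43 times WT (2.60, SE 0.367, limma adjusted p = 8.18e-05), and Rhbg 5.62 ± 2.29 FPKM, 7.52 times WT (1.90, SE 0.314, limma adjusted p = 0.000267). Glul averaged 308 ± 95.2 FPKM, 2.27 times WT (1.17, SE 0.296, limma adjusted p = 0.00512). In TNFR12_KO, Oat averaged 201 ± 107 FPKM, 6.42 times WT (2.60, SE 0.374, limma adjusted p = 0.000108). Rhbg averaged 4.07 ± 2.21 FPKM, 5.45 times WT (1.49, SE 0.314, limma adjusted p = 0.0018), and Slc1a2 12.4 ± 2.57 FPKM, 2.55 times WT (1.36, SE 0.367, limma adjusted p = 0.00858). Glul averaged 286 ± 46.2 FPKM, 2.10 times WT (1.10, SE 0.296, limma adjusted p = 0.00832). With median-of-ratios scaling 26.3% of all tested genes were called higher and 23.1% lower in TNFR12_KO against WT. Glul is the 1 gene of the 4 whose calls did not survive another scaling: with quantile normalization its fold change was 0.23 in RIPK1_D138N and 0.31 in TNFR12_KO (limma adjusted p = 0.499 and 0.374). The 2 comparisons share the WT libraries. Without WT library b, Slc1a2 stood at 11.55 times WT in RIPK1_D138N and 4.59 times in TNFR12_KO, and Rhbg at 12.2 and 8.87 times. With RIPK1_D138N replicates 2 and 3 left out, so that the arm is 1 library, all 4 genes were still called (log2 fold changes 3.88 for Oat, 3.07 for Slc1a2, 2.43 for Rhbg and 1.63 for Glul). In that fit 6 members were called higher and 1 lower in RIPK1_D138N against WT, beside 21.7% of all tested genes called higher and 15.3% lower.

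**Figure D2:**
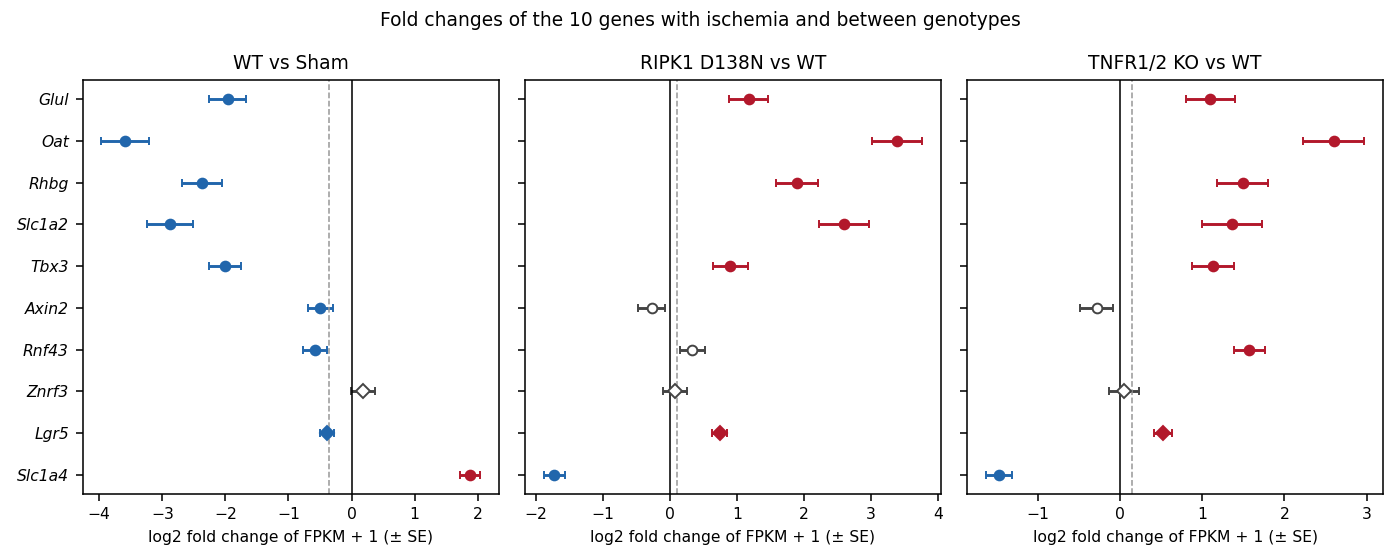
Log2 fold change of FPKM + 1 with its standard error for each gene in WT against Sham, RIPK1_D138N against WT and TNFR12_KO against WT (3 libraries per group). Filled red and blue symbols were called higher and lower, open symbols were not called, diamonds are the 2 genes under the filter on low values (from the fit without it), and the dashed line is the median of all tested genes. Oat is the farthest from 0 of the 10 in each panel, from -3.59 in WT against Sham to 3.39 in RIPK1_D138N against WT.

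The stretches before the start sites are shown for genes that moved together (Glul, Oat and Slc1a2) and for Slc1a4, which moved against them. They were read from RefSeq promoter windows on GRCm38.p6, 5′ to 3′ on the strand of the gene, from 250 bases before the start to 51 bases before it, or to 83 bases before it in Slc1a2, where an annotated exon follows. Capitals mark CTTTGA or its reverse complement TCAAAG, the core letters that TCF/LEF factors are known to recognise, searched on both strands.
Glul, chr1:153899679-153899878, + strand: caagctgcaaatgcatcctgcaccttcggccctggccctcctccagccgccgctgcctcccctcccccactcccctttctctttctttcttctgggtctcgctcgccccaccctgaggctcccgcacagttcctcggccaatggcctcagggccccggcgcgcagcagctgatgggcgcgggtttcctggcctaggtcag
Oat, chr7:132576449-132576648, - strand: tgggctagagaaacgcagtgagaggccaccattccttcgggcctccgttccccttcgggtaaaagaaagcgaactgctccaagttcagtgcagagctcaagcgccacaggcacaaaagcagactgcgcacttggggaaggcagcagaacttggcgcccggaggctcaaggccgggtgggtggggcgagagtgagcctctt
Slc1a2, chr2:102706188-102706355, + strand: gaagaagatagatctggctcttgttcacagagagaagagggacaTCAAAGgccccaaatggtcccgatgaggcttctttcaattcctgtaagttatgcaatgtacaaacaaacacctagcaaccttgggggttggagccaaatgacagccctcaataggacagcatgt
Slc1a4, chr11:20332764-20332963, - strand: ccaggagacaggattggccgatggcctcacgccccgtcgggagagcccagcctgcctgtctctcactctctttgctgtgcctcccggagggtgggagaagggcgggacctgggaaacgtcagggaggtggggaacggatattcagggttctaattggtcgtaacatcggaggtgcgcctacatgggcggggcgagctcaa
Of the 10 genes, 6 had a RefSeq window, in 7 windows of 250 bases. Slc1a2 was the only gene with the letters in them: TCAAAG starts 206 bases and CTTTGA 77 bases before its start. CTTTGA lies beyond the stretch shown, past the first base of the annotated exon, of which the window holds 29 bases. That start lies inside the span GENCODE gives the gene: the window ends at 102706437, while the gene begins at 102658659. Among all 32851 windows 13.8% hold the letters at least once and 1.37% hold them 2 or more times. The windows of Glul, Oat, Slc1a4, Rnf43 and Axin2 do not hold these letters. Lgr5, Znrf3, Tbx3 and Rhbg were not searched. A match in so short a motif is a description of the sequence and not a binding site.

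Slc1a4 encodes ASCT1, a transporter of neutral amino acids such as serine and alanine (chromosome 11, 20302180 to 20332713, − strand). It read 0.5763, 0.58 and 0.5228 FPKM in RIPK1_D138N, 0.5651, 1.141 and 0.907 in TNFR12_KO, 4.449, 3.487 and 4.624 in WT and 0.359, 0.4083 and 0.4534 in Sham. Every WT library lay above every other library. Its mean in WT was 10.3 times that in Sham (log2 fold change 1.88, SE 0.155, limma adjusted p = 9.44e-07). Against WT it was 7.48 times lower in RIPK1_D138N (log2 fold change -1.73, SE 0.155, limma adjusted p = 3.02e-06), while it was 4.81 times lower in TNFR12_KO (-1.48, SE 0.155, limma adjusted p = 9.60e-06). These calls and directions held in all of the alternatives run for them. Behind the low Sham values stood about 17.6 to 35.1 fragments per library, estimated on the longest transcript.

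Slc1a4 was set beside the other Slc1 transporters and beside genes that the transcription factor ATF4 induces when amino acids run short. Slc1a5, which encodes the glutamine transporter ASCT2, was the only 1 of 5 other Slc1 genes above the filter, and it is named for that and not by the rule for named genes. It averaged 4.31 ± 1.37 FPKM in WT against 1.10 ± 0.686 in Sham (log2 fold change 1.37, SE 0.233, limma adjusted p = 0.000275). In the mutants Slc1a5 averaged 1.42 ± 0.104 FPKM in RIPK1_D138N and 0.501 ± 0.0737 in TNFR12_KO, and it fell against WT in both (-1.11 and -1.79). Of 15 genes of the ATF4 list 10 were tested. In WT against Sham 7 rose and 1 fell, beside 16.4% of all tested genes called higher and 41.9% lower. The 1 that fell was Asns, an enzyme that makes asparagine, at 5.65 ± 1.05 FPKM in WT against 16.5 ± 5.05 in Sham. Chac1 also read lower in WT, at 10.7 against 15.8 FPKM, and was not called. Psat1, an enzyme of serine synthesis, averaged 10.2 ± 3.99 FPKM in WT against 0.991 ± 0.649 in Sham (log2 fold change 2.47), and Slc3a2, the heavy chain of amino acid transporters, rose by 1.56. In RIPK1_D138N against WT 9 of the 10 fell and in TNFR12_KO against WT 8 fell, beside 21.9% and 17.5% of all tested genes called lower. Psat1 stood at -3.02 and -3.12 and Trib3, a pseudokinase induced by stress, at -2.11 and -1.54.

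Tbx3 encodes a T-box transcription factor (chromosome 5, 119670669 to 119684724, + strand). It read 3.365, 1.422 and 1.663 FPKM in RIPK1_D138N, 2.499, 2.021 and 3.247 in TNFR12_KO, 0.5776, 0.7941 and 0.5183 in WT and 3.669, 5.943 and 7.569 in Sham. WT lay under all other libraries, and both mutants lay between WT and Sham without overlap. Tbx3 was 9.09 times lower in WT than in Sham (log2 fold change -2.005, SE 0.257, limma adjusted p = 2.84e-05). Against WT it was 3.41 times higher in RIPK1_D138N (0.90, SE 0.257, limma adjusted p = 0.0103) and 4.11 times higher in TNFR12_KO (1.13, SE 0.257, limma adjusted p = 0.00298).

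Axin2 encodes a scaffold of the complex that marks β-catenin for destruction, and its transcription is a textbook readout of Wnt signalling (chromosome 11, 108920349 to 108950783, + strand). It read 0.7472, 0.4223 and 0.8845 FPKM in RIPK1_D138N, 0.6901, 0.4678 and 0.8261 in TNFR12_KO, 1.118, 1.316 and 0.6732 in WT and 1.192, 2.327 and 2.142 in Sham. WT overlapped every other group, while both mutants lay under all Sham libraries. In WT against Sham it fell (log2 fold change -0.49, SE 0.199, limma adjusted p = 0.048), but the call was lost in 10 of 13 alternatives, among them both other pseudocounts and both other scalings (limma adjusted p = 0.0113 to 0.253 over the 13). In the mutants against WT it read lower, not higher, and was not called (log2 fold change -0.27, SE 0.199, limma adjusted p = 0.272 in RIPK1_D138N; -0.29, SE 0.199, limma adjusted p = 0.255 in TNFR12_KO). Axin2 and the 4 ammonia and glutamate genes thus had different patterns in the mutants, a contrast between genes that was not itself tested.

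Rnf43 and Znrf3 encode membrane ubiquitin ligases that remove Frizzled receptors from the cell surface. Rnf43 (chromosome 11, 87662722 to 87735539, + strand) read 2.252, 1.444 and 0.9657 FPKM in RIPK1_D138N, 5.548, 4.186 and 5.009 in TNFR12_KO, 0.9326, 0.8885 and 1.135 in WT and 2.033, 2.223 and 1.665 in Sham. The TNFR12_KO libraries lay above all others, and RIPK1_D138N overlapped both WT and Sham. Rnf43 was 4.99 times higher in TNFR12_KO than WT (1.57 on the log2 scale, SE 0.188, limma adjusted p = 2.52e-05). It was not called in RIPK1_D138N against WT (0.33, SE 0.188, limma adjusted p = 0.153). In WT against Sham it fell (log2 fold change -0.58, SE 0.188, limma adjusted p = 0.0178), a call lost with median-of-ratios scaling (limma adjusted p = 0.122) and on leaving out Sham library b or WT library a (limma adjusted p = 0.0598 and 0.0518). Its adjusted p ran from 0.0121 to 0.122 over all its alternatives. Znrf3 (chromosome 11, 5276324 to 5444847, − strand) read 0.4996, 0.8447 and 1.128 FPKM in RIPK1_D138N, 0.7953, 0.5592 and 0.9998 in TNFR12_KO, 0.9498, 0.4128 and 0.8306 in WT and 0.2939, 0.6686 and 0.6043 in Sham. The 4 groups of Znrf3 overlapped.

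Lgr5 encodes a receptor for R-spondins, which strengthen Wnt signalling (chromosome 10, 115450311 to 115587780, − strand). It read 0.6847, 0.675 and 1.173 FPKM in RIPK1_D138N, 0.5801, 0.5413 and 0.5907 in TNFR12_KO, 0.1188, 0.05083 and 0.1138 in WT and 0.3317, 0.3869 and 0.5706 in Sham. WT lay under all other libraries, with about 14.5 to 21.6 fragments per library, estimated on the longest transcript. Lgr5 and Znrf3 did not reach the filter on low values, and were tested only in a fit of 27155 genes without it. In that fit Lgr5 fell in WT against Sham (log2 fold change -0.38, SE 0.111, limma adjusted p = 0.0269). It rose against WT in RIPK1_D138N (0.74, SE 0.111, limma adjusted p = 0.000857) and in TNFR12_KO (0.52, SE 0.111, limma adjusted p = 0.00728). Without the filter 17.4% of genes were called lower in WT against Sham, 13.1% higher in RIPK1_D138N against WT and 12.1% higher in TNFR12_KO against WT. Znrf3 was not called in any of the 6 comparisons of that fit, with limma adjusted p values from 0.449 to 1.

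In RIPK1_D138N against Sham 2 of the 8 tested members fell, Axin2 (log2 fold change -0.76, SE 0.199, limma adjusted p = 0.0127) as well as Tbx3 (-1.10, SE 0.257, limma adjusted p = 0.00723), beside 22.7% of all tested genes called lower and 7.51% higher. With the Xist-positive replicates left out neither was called (limma adjusted p = 0.143 and 0.268). Oat stood at 87.7% of its Sham mean in RIPK1_D138N, Slc1a2 at 82.5%, Rhbg at 71.2% and Glul at 57.7%, with ranges that overlapped Sham. For Glul the test fell just short of a call (-0.79, SE 0.296, limma adjusted p = 0.0597), and 2 of 15 alternatives called it lower. In TNFR12_KO against Sham 4 fell and 1 rose, beside 18.1% of all tested genes called lower and 7.46% higher. Those that fell were Slc1a2 (-1.52, SE 0.367, limma adjusted p = 0.00994), Tbx3 (-0.88, SE 0.257, limma adjusted p = 0.0258), Axin2 (-0.78, SE 0.199, limma adjusted p = 0.0132) and Glul (-0.87, SE 0.296, limma adjusted p = 0.0481). Rnf43 rose (0.99, SE 0.188, limma adjusted p = 0.00263), at 2.49 times its Sham mean. The Glul call was lost in 9 of 14 alternatives and the Tbx3 call in 7 of 13, both scalings among them, while Axin2 and Rnf43 kept theirs in all 13. Slc1a2 lost its call with quantile normalization (limma adjusted p = 0.0618). With median-of-ratios scaling 2 members rose and 2 fell in TNFR12_KO against Sham, and Slc1a4 was among those that rose (log2 fold change 0.46, limma adjusted p = 0.0342). That scaling moved the shares of all tested genes to 12.1% lower and 11% higher in RIPK1_D138N, and to 10.2% lower and 10.5% higher in TNFR12_KO. The 2 comparisons share the Sham libraries.

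Set directly against each other, the mutants differed in 1 of the 8 tested members, Rnf43, which was 3.16 times lower in RIPK1_D138N than in TNFR12_KO (log2 fold change -1.24, SE 0.188, limma adjusted p = 0.00856). Among all tested genes 0.35% were called higher and 0.58% lower, and with median-of-ratios scaling 44 genes were called higher and 42 lower. The Rnf43 call was lost in 5 of 15 alternatives, on leaving out RIPK1_D138N replicate 3 (limma adjusted p = 0.0546), TNFR12_KO replicate 3 (limma adjusted p = 0.0516) or both Xist-positive libraries (log2 fold change -0.86, limma adjusted p = 0.345) among them. Slc1a2 read 2.52 times higher in RIPK1_D138N than in TNFR12_KO, with no overlap between the libraries, and was not called (log2 fold change 1.24, SE 0.367, limma adjusted p = 0.15). Oat read 1.64 times higher and Rhbg 1.38 times higher in RIPK1_D138N, both with overlap and not called (limma adjusted p = 0.422 and 0.688). Glul, Tbx3 and Axin2 overlapped between the mutants and were not called (limma adjusted p = 0.957, 0.808 and 0.988).

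**Figure D3:**
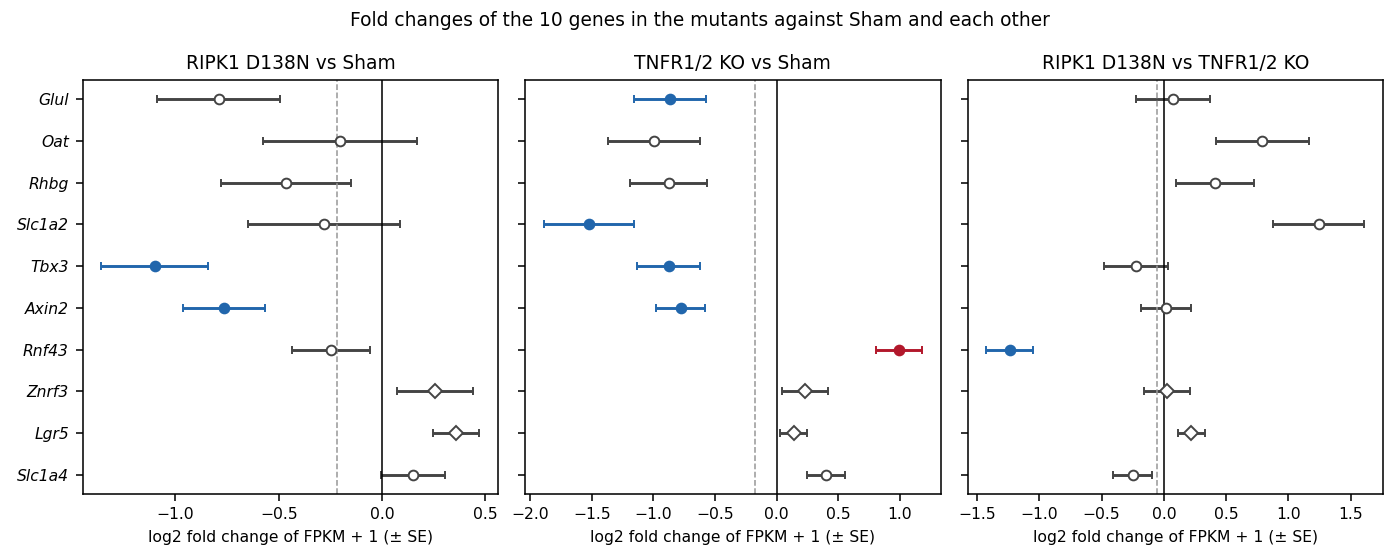
Log2 fold change of FPKM + 1 with its standard error for each gene in RIPK1_D138N against Sham, TNFR12_KO against Sham and RIPK1_D138N against TNFR12_KO (3 libraries per group). Symbols and the dashed median of all tested genes are as in the plot of the comparisons with WT. Tbx3 and Axin2 are blue in both comparisons with Sham, and Rnf43 is the 1 gene called in the right panel, at -1.24.

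By mean level the order was Sham, RIPK1_D138N, TNFR12_KO and WT from highest to lowest for Glul, Oat, Rhbg and Slc1a2, and the last step, from TNFR12_KO to WT, was the one where ranges did not overlap for all 4. For Tbx3 the mutants changed places, and for Lgr5 both mutants stood above Sham. For Axin2 the order was Sham, WT, RIPK1_D138N and TNFR12_KO, and no neighbouring pair was free of overlap. Across the 12 libraries the patterns of Glul and Tbx3 were the closest pair among the 8 tested genes. Their mean absolute difference was 0.222 in log2(FPKM + 1), after each gene was centred on its own mean. That scale shrinks the changes of low genes: Tbx3 was 9.09 times lower in WT than in Sham and Glul 3.93 times. Their log2 fold changes on it were -2.005 and -1.97. Rhbg and Slc1a2 differed by 0.379 and Oat and Slc1a2 by 0.374, while Oat and Slc1a4 differed most, by 1.83.

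The same measure was used to find the genes most like 3 of the members among all tested genes with a mean of at least 5 FPKM, 5511 or 5512 candidates per gene. Glul was followed most closely by Mat2a, which encodes a methionine adenosyltransferase, at a mean absolute difference of 0.201, then by Ginm1, Acaa1a, Shb and Aldh16a1 at 0.219 to 0.236. Mat2a read 32.58 to 74.67 FPKM in RIPK1_D138N, 53.45 to 54.46 in TNFR12_KO, 22.53 to 34.81 in WT and 80.22 to 116.3 in Sham. Axin2 was followed by Atg2b, an autophagy gene, at 0.112, then by Ap1g1, Eif1ad, Gpatch4 and Sun2. Slc1a4 was followed by Pcgf5, which encodes a Polycomb group protein, at 0.128, then by Dusp16, Egln1, Tpm3 and Slc12a4. Pcgf5 read 3.015 to 3.534 FPKM in RIPK1_D138N, 3.776 to 4.067 in TNFR12_KO, 8.957 to 11.87 in WT and 2.687 to 2.775 in Sham. The scale shrinks the changes of low genes such as Slc1a4 and Axin2, so a small difference does not mean an equal fold change.

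Genes of both ends of the lobule moved in the same directions as the ammonia and glutamate genes. Of 25 other pericentral genes 23 fell in WT against Sham, 22 rose in RIPK1_D138N against WT and 20 rose in TNFR12_KO against WT. Their median log2 fold changes were -2.22, 2.06 and 2.02, beside -1.99, 1.04 and 1.24 for the 8 tested members and -0.36, 0.11 and 0.14 for all tested genes. The list medians are not like for like. The scale of FPKM + 1 shrinks the changes of low members such as Rhbg and Tbx3, and the member median includes Slc1a4, which moved the other way. Of 20 periportal genes 17 fell and 1 rose in WT against Sham, 16 rose and 2 fell in RIPK1_D138N against WT, and 17 rose in TNFR12_KO against WT, with medians of -2.31, 2.34 and 2.23. Among the pericentral genes Rgn, which encodes regucalcin, averaged 83.1 ± 45.8 FPKM in WT against 504 ± 49.3 in Sham, and Cyp7a1, which controls the rate at which bile acids are made from cholesterol, averaged 28.1 FPKM in RIPK1_D138N and 17.3 in TNFR12_KO against 0.687 in WT. Among the periportal genes Sds, serine dehydratase, averaged 14.96 ± 2.39 FPKM in WT against 394 ± 33.3 in Sham, and Otc, a urea cycle enzyme, averaged 174 FPKM in RIPK1_D138N and 191 in TNFR12_KO against 17.0 in WT. With quantile normalization the pericentral medians were -1.21, 1.27 and 1.35 and the periportal ones -1.35, 1.46 and 1.49. Those of the 8 tested members were then -1.30, 0.66 and 1.19, so in WT against Sham the members no longer fell less than the other pericentral genes. With that scaling 18 pericentral genes fell and 1 rose in WT against Sham, beside 27.0% of all tested genes called lower and 25.0% higher. Against Sham, 5 of the other pericentral genes rose and 4 fell in RIPK1_D138N, and 2 rose and 8 fell in TNFR12_KO. These counts depended on the fit: without replicates 2 and 3 of RIPK1_D138N 1 rose and 1 fell there, and with either other scaling 6 rose and 2 fell in RIPK1_D138N and 2 rose and 4 fell in TNFR12_KO.

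The other genes of glutamate and ammonia handling were counted from a list of 20, of which 16 were tested. Cps1 and Gls2 in it were also counted in the periportal list. In WT against Sham 13 fell and 1 rose (median -1.66), beside 41.9% of all tested genes called lower and 16.4% higher. Cps1, which fixes ammonia for the urea cycle, averaged 51.0 ± 12.5 FPKM in WT against 329 ± 81.7 in Sham (log2 fold change -2.67), and Gls2, the liver glutaminase that releases ammonia from glutamine, 24.2 ± 2.58 against 118 ± 3.04 (-2.25). In RIPK1_D138N against WT 12 rose and 3 fell, beside 29.8% of all tested genes called higher and 21.9% lower. In TNFR12_KO against WT 12 rose and 2 fell, beside 29.6% and 17.5%. With quantile normalization 9 fell and 2 rose in WT against Sham, beside 27.0% of all tested genes called lower and 25.0% higher. With it 9 rose and 3 fell in RIPK1_D138N against WT, beside 25.8% called higher and 28.0% lower. In TNFR12_KO against WT 8 then rose and 2 fell, beside 24.4% and 26.4%. Cps1 rose by 2.70 and 2.76, Gls2 by 2.48 and 2.44, and Prodh, proline dehydrogenase, by 2.45 and 2.22. Asns, which makes asparagine with glutamine as nitrogen donor, averaged 0.909 FPKM in RIPK1_D138N, 2.96 in TNFR12_KO and 5.65 in WT against 16.5 in Sham.

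**Figure D4:**
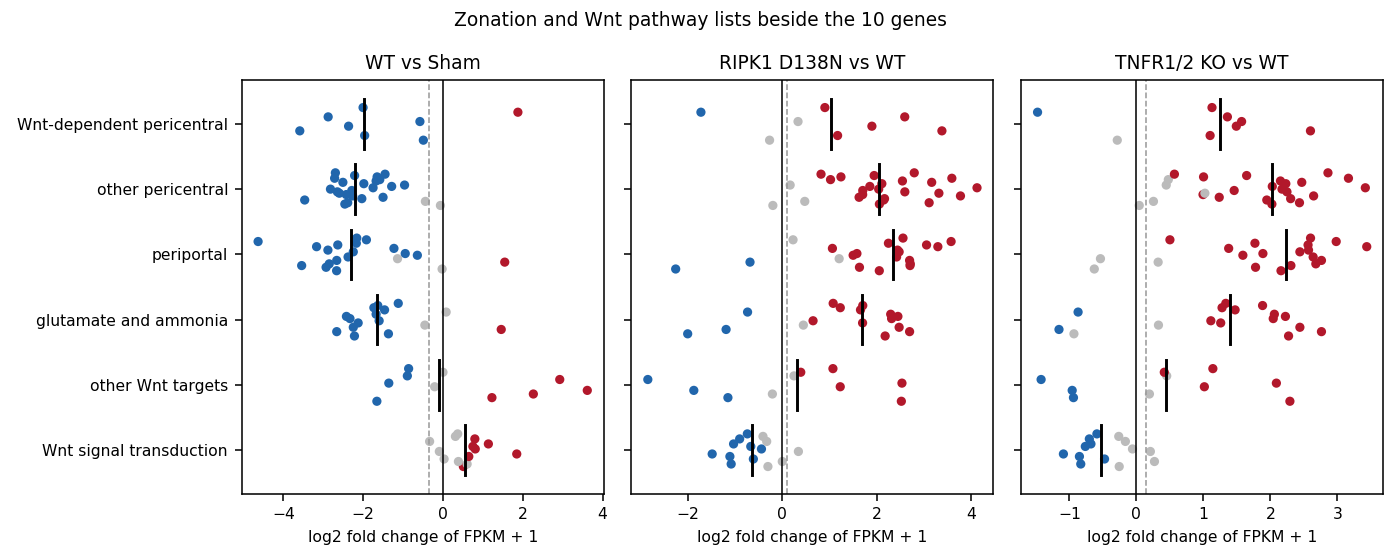
Log2 fold change of FPKM + 1 of each tested gene in 6 lists for WT against Sham, RIPK1_D138N against WT and TNFR12_KO against WT. Red and blue points were called higher and lower, grey points were not called, thick black lines are list medians and the dashed line is the median of all tested genes. In WT against Sham the medians of the other pericentral, periportal and glutamate lists lie left of the dashed line, at -2.22, -2.31 and -1.66, and that of the Wnt signal transduction list lies right of it, at 0.56.

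The rest of the Wnt pathway was read from lists of ligands with their secretion factors, receptors, signal transducers, nuclear factors, extracellular and membrane inhibitors, and other targets. The list of 11 ligands, R-spondins and the secretion factors Wls and Porcn had 6 tested genes, of which 4 were ligands or R-spondins, and all 6 were low. Those called in WT against Sham are named although none reaches 5 FPKM. Wnt5b averaged 0.231 FPKM in WT against 4.28 in Sham (log2 fold change -2.09) and Wnt2, a ligand of central vein endothelium, 0.109 against 0.975 (-0.81), while Wnt4 averaged 2.29 against 0.354 (1.26). Wnt2 read 0.3501, 1.459 and 1.164 FPKM in RIPK1_D138N and 0.214, 0.0452 and 0.06837 in WT, and rose (0.80, SE 0.262, limma adjusted p = 0.0212), a call lost without replicates 2 and 3 (0.29, limma adjusted p = 0.508). In TNFR12_KO it read 0.8885, 0.04498 and 0.3869 FPKM and was not called against WT (limma adjusted p = 0.308). Rspo3, the R-spondin of the central vein, averaged 2.36 FPKM in RIPK1_D138N, 1.09 in TNFR12_KO, 1.28 in WT and 2.13 in Sham, and was not called in any of the 6 comparisons. Without replicates 2 and 3 it was called higher in RIPK1_D138N against WT (0.93, limma adjusted p = 0.0462). Wnt9b was listed at 0 in 2 of 3 WT libraries and at no more than 0.1541 FPKM elsewhere, too low to test.

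Of 12 receptor genes 8 were tested, and Lgr4, a relative of Lgr5 that also binds R-spondins, was the 1 that fell in WT against Sham. It averaged 2.79 ± 0.464 FPKM in WT against 8.19 ± 0.707 in Sham (log2 fold change -1.28, SE 0.154, limma adjusted p = 1.76e-05). Lgr4 rose against WT in RIPK1_D138N, at 6.47 ± 0.754 FPKM (0.98), and in TNFR12_KO, at 7.26 ± 0.743 FPKM (1.13). All 14 signal transducers were tested, and 7 rose in WT against Sham while none fell, beside 16.4% of all tested genes called higher. With median-of-ratios scaling 11 rose and with quantile normalization 12, beside 24.2% and 25.0% of all tested genes. In RIPK1_D138N against WT 9 fell and none rose, or 6 fell without replicates 2 and 3, and in TNFR12_KO against WT 8 fell and none rose. Csnk1e and Csnk1d, casein kinases of the pathway, averaged 9.91 and 16.8 FPKM in WT against 2.07 and 10.6 in Sham. Ctnnb1, the gene of β-catenin, averaged 105 FPKM in RIPK1_D138N, 95.6 in TNFR12_KO, 82.8 in WT and 88.3 in Sham and was not called in any of the 6 comparisons. Of 12 nuclear factors 9 were tested, with 1 higher and 2 lower in WT against Sham, and Tle1, a co-repressor, averaged 7.97 FPKM in WT against 17.4 in Sham. Of 12 inhibitors 1 was tested, Kremen1, a membrane receptor for Dkk proteins that is named for being the only one. It was not called in WT against Sham and was called lower in RIPK1_D138N against WT (log2 fold change -0.53, limma adjusted p = 0.0417), a call lost without replicates 2 and 3 (limma adjusted p = 0.159).

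The 12 other Wnt targets, of which 10 were tested, split: 4 rose and 4 fell in WT against Sham, and 5 rose and 3 fell in each mutant against WT. Notum, a secreted enzyme that inactivates Wnt proteins, read 17.65, 18.7 and 26.28 FPKM in RIPK1_D138N, 14.53, 14.91 and 14.88 in TNFR12_KO, 2.1, 4.824 and 1.824 in WT and 7.065, 7.984 and 10.9 in Sham. Both mutants lay above all Sham libraries and WT lay under them. Notum fell in WT against Sham (log2 fold change -1.36, SE 0.259, limma adjusted p = 0.00062). It rose against WT in RIPK1_D138N (2.54, SE 0.259, limma adjusted p = 6.40e-06) and TNFR12_KO (2.09, SE 0.259, limma adjusted p = 3.29e-05). Against Sham it rose in RIPK1_D138N (1.18, SE 0.259, limma adjusted p = 0.00519) and was not called in TNFR12_KO (0.73, limma adjusted p = 0.0551). Without replicates 2 and 3 it was not called in RIPK1_D138N against Sham either (0.97, limma adjusted p = 0.116). Ccnd1, cyclin D1, averaged 11.2 FPKM in RIPK1_D138N and 8.20 in TNFR12_KO against 0.899 in WT, and rose in both. Myc and Sox9 went the other way, with Myc at 52.2 FPKM in WT against 3.37 in Sham and Sox9 at 24.0 against 2.32.

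Markers of other liver cells moved in some of the same comparisons, and their part in the results on the 10 genes was not tested. All 10 hepatocyte markers fell in WT against Sham, and 9 rose and 1 fell in each mutant against WT. With quantile normalization 4 of the 10 fell in WT against Sham (median -0.33, against -1.97 without it) and 6 rose in each mutant against WT. Of 12 endothelial markers 11 were tested, and 4 rose and 3 fell in WT against Sham. Their summed level was 33.7 to 122 FPKM in RIPK1_D138N, 15.7 to 72.8 in TNFR12_KO, 35.1 to 45.1 in WT and 41.5 to 58.4 in Sham. Clec4g, a lectin of sinusoidal endothelium, averaged 32.2 FPKM in RIPK1_D138N, 12.7 in TNFR12_KO, 0.977 in WT and 20.1 in Sham. Other endothelial genes went the other way: Pecam1 averaged 4.18 FPKM in RIPK1_D138N, 1.81 in TNFR12_KO, 7.14 in WT and 2.49 in Sham, and Cdh5 averaged 2.93, 2.66, 5.93 and 1.36 FPKM in the same order of groups. Both were called higher in WT against Sham and lower in each mutant against WT. The summed level of 10 stellate cell markers was 163 to 202 FPKM in RIPK1_D138N, 69.9 to 113 in TNFR12_KO, 140 to 170 in WT and 77.0 to 105.5 in Sham, with 4 higher and 1 lower in WT against Sham. That of 10 Kupffer cell markers was 22.4 to 27.4 FPKM in RIPK1_D138N, 13.9 to 18.5 in TNFR12_KO, 72.8 to 102 in WT and 76.9 to 118 in Sham, with 1 higher and 5 lower in WT against Sham among 8 tested, and 4 lower in RIPK1_D138N and 6 lower in TNFR12_KO against WT. Much of the WT sum was Cd68, a lysosomal protein of macrophages, at 41.65 to 60.79 FPKM in WT against 2.142 to 2.715 in Sham. Without Cd68 the sums were 20.6 to 26.2 FPKM in RIPK1_D138N, 10.8 to 16.8 in TNFR12_KO, 30.5 to 41.0 in WT and 74.8 to 115 in Sham. That of 8 cholangiocyte markers, which include Sox9, was 52.9 to 72.1 FPKM in RIPK1_D138N, 35.7 to 60.2 in TNFR12_KO, 68.5 to 201 in WT and 23.9 to 29.2 in Sham. Neutrophil markers were not called in WT against Sham (0 of 5 tested), with sums of 4.61 to 281 FPKM in WT and 37.8 to 81.6 in Sham, and lymphocyte markers summed to 4.85 FPKM or less in every library. Cftr, at 0 in all Sham libraries, was the 1 marker listed at 0 throughout a group.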

How the data were processed

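Liver RNA of 12 mouse libraries was compared in 4 groups of 3. The authors deposited FPKM values in 1 table of 53796 genes. The submitters' processing notes name STAR (2.5.4a), Cufflinks (2.2.1), Cuffdiff and mm10. Whether strand was used in counting is not stated, and near-identical genes such as the Cyp2a, Cyp2c and Cyp3a families can share fragments. Columns of WT and Sham were matched to their group only and are called libraries a to c. Depth was read from the steps of low FPKM values in single-transcript genes of 1.5 to 8 kb. Only values up to about 5 fragments were used, 815 to 1264 per library, and 94.3 to 95.8% lay within 10% of a whole number of fragments. That window widens with the number and takes in nearly any value at 5 fragments. The share that evenly spread values would reach was not computed. Fragments per FPKM read this way hold the authors' scaling as well as depth. The deposited locus of Oat spans 130162450 to 133124354, wider than the gene. Those of Glul (from 153849541), Tbx3 (from 119570129) and Rhbg (to 88296999) are also wider than their genes.

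Fold changes come from limma (3.58.1, R 4.3.3) with trended variance, fitted once to log2(FPKM + 1) of all 4 groups. Tested were the 11728 genes that reached 1 FPKM in 3 or more libraries, 8 members among them, with Benjamini-Hochberg adjustment over all and a threshold of 0.05. The procedure was tested on simulated data. Alternatives were other pseudocounts (0.1 and 0.5), filters, scalings and samples in the fit, no mean-variance trend, and left-out libraries. Of the other lists, at most 4 genes per comparison are named: called, without overlap, at 5 FPKM or more in the higher group, largest change first. Slc1a5, Wnt2, Wnt4, Wnt5b, Wnt9b, Rspo3, Ctnnb1, Nkd1, Kremen1, Sp5, Tnfrsf19, Cd44, Tcf7 and Apcdd1 fall outside this rule and were chosen after their values were seen. The means without WT library b, the Kupffer sum without Cd68 and the list genes without RIPK1_D138N replicates 2 and 3 were added after seeing the data. The values of Asns and Chac1 in WT against Sham were also added after seeing the data. The members and the lists were chosen with earlier results of these data known. Gene coordinates are from GENCODE M21. Same-numbered RIPK1_D138N and TNFR12_KO libraries did not deviate together (correlations -0.10, -0.20 and 0.06), so numbers were not used as pairs.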

Additional observations from a re-analysis of the deposited data

Results flagged for a closer look

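Rnf43 is singled out because its level relative to WT differed between the mutants by a direct test. The log2 fold change of RIPK1_D138N over TNFR12_KO was -1.24 (SE 0.188, limma adjusted p = 0.00856). All 3 RIPK1_D138N libraries, at 0.9657 to 2.252 FPKM, lay under all 3 TNFR12_KO libraries, at 4.186 to 5.548 FPKM. Over 15 alternatives the adjusted p ran from 0.000434 to 0.345. With the 2 Xist-positive RIPK1_D138N libraries left out, the remaining library read 2.252 FPKM and the call was lost. Against WT, Rnf43 then stood at 0.71 on the log2 scale in RIPK1_D138N, where all 3 libraries gave 0.33. Whether the mix of Xist-positive and Xist-negative libraries plays a part was not tested.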

How the results depend on the processing

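Of 680 fold changes of single genes recomputed under an alternative, 617 kept their direction and their side of the threshold. Oat, Slc1a2, Rhbg, Tbx3 and Slc1a4 kept theirs in WT against Sham and in both comparisons with WT under every alternative run for them. Where the number of members called moved by over 1.5 times, the cause was not tested except where fewer genes or libraries entered. A filter of 5 FPKM leaves 4 members, of which 4 were called in WT against Sham, 4 in TNFR12_KO against WT, 0 in RIPK1_D138N against TNFR12_KO, 0 in RIPK1_D138N against Sham and 2 in TNFR12_KO against Sham. At that filter 56.5% of all tested genes were called lower in WT against Sham and 41.1% higher in TNFR12_KO against WT. Against Sham 23.8% were called lower and 7.8% higher in TNFR12_KO, and 28.5% and 7.3% in RIPK1_D138N. In RIPK1_D138N against TNFR12_KO 1.0% were called lower and 0.5% higher. With no filter 3 members were called in TNFR12_KO against Sham, beside 6.4% of all tested genes called lower and 2.7% higher. With quantile normalization 2 members were called there, beside 10.1% of all tested genes called lower and 9.6% higher. With the Xist-positive libraries left out 0 were called in RIPK1_D138N against TNFR12_KO and 0 against Sham. In RIPK1_D138N against TNFR12_KO 0 were called with only those 2 groups in the fit, and 0 with the replicate block, under which Rnf43 stood at -1.24 (limma adjusted p = 0.259). Against WT and Sham no paired fit was possible because their columns carry no number. On leaving out 1 library the counts ran from 0 to 1 in RIPK1_D138N against TNFR12_KO, from 1 to 3 in RIPK1_D138N against Sham and from 3 to 5 in TNFR12_KO against Sham. In the same order, the shares of all tested genes called lower ran from 0.1% to 2.7%, 14.7% to 21.6% and 11.1% to 16.3%. Those called higher ran from 0.1% to 2.3%, 4.5% to 9.4% and 4.7% to 6.1%. Some uncalled fold changes changed sign. In RIPK1_D138N against TNFR12_KO, Glul was -0.08 with quantile normalization and Tbx3 0.30 without the Xist-positive libraries, and on leaving out 1 library Glul ran from -0.15 to 0.29 and Axin2 from -0.07 to 0.13. In RIPK1_D138N against Sham, Oat was 0.05 with median-of-ratios scaling, 0.03 with quantile normalization and 0.29 without the Xist-positive libraries, and ran from -0.45 to 0 on leaving out 1 library. Without the Xist-positive libraries Rnf43 was 0.13, Rhbg 0.06 and Slc1a2 0.19 in that comparison. Among all genes RIPK1_D138N against TNFR12_KO had 41 called higher and 68 lower, against 273 and 315 without RIPK1_D138N replicate 1 and 7 and 4 with the block. Low depth limits Lgr5, Slc1a4, Rhbg, Znrf3 and Axin2, whose lowest libraries hold about 14.5, 17.6, 29.9, 41.9 and 42.6 fragments.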

Other observations

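Within RIPK1_D138N, genes of the pathway ordered the libraries differently. The Xist-negative replicate 1, which read as male by Ddx3y, was the highest of the group for Glul, Oat, Rhbg, Slc1a2, Tbx3 and Rnf43. It was the lowest for Notum (17.65 FPKM, against 18.7 and 26.28 in replicates 2 and 3), for Nkd1, an inhibitor induced by Wnt signalling (1.554 against 2.865 and 2.843), for Ccnd1 (4.072 against 16.24 and 13.21), for Wnt2 (0.3501 against 1.459 and 1.164) and for the endothelial lectin gene Clec4g (6.734 against 55.39 and 34.44). Other Wnt targets split: replicate 1 was the highest for Sp5 (0.9141 FPKM against 0.1847 and 0.2681), Tnfrsf19, Myc, Sox9 and Cd44. It was the lowest for Jun, Tcf7 and Apcdd1. Glul stood at 57.7% of its Sham mean in RIPK1_D138N and at 53.5% in TNFR12_KO, while Notum stood above its Sham range in both. Nkd1 also rose against Sham in both mutants, at 2.42 ± 0.751 FPKM in RIPK1_D138N and 1.92 ± 0.480 in TNFR12_KO against 0.664 ± 0.177 in Sham (log2 fold changes 1.02 and 0.80, limma adjusted p = 0.00219 and 0.00931), while Axin2 fell against Sham in both. Without RIPK1_D138N replicates 2 and 3 neither Nkd1 nor Axin2 was called there against Sham (0.62 and -0.70, limma adjusted p = 0.127 and 0.143). Sp5 averaged 0.456 FPKM in RIPK1_D138N and 0.653 in TNFR12_KO against 1.23 in Sham. Axin2, Notum and Nkd1 are all textbook Wnt targets that damp the pathway. These genes were chosen after their values were seen, and the difference between them was not tested.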
